A study of Homo sapiens with 4 samples.

Results

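The origins described here are strong sites of replication initiation in HCT116 cells that lay away from RepID binding and were still covered by initiation regions after RepID was knocked out. They were chosen by measured values: from the regions enriched for nascent strands in HCT116 cells with unaltered RepID (WT), those on the 22 autosomes were taken that had a score of at least 295 and a width under 20 kb. Of these, only regions whose gap to the nearest RepID-bound region of U2OS cells was over 10 kb and at most 300 kb were retained, and these are called strong RepID-free origins. An origin was kept when regions of the RepID knockout (KO) list covered 50% or more of its length. The WT list held 78859 origins, 77492 of them on the autosomes, and 8775 were strong RepID-free origins. Of these, 3833 were kept and are described below, and 4942 were not kept.

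A replication origin is a place where the DNA double helix is opened and copying begins. The origin recognition complex loads the MCM helicase at many potential origins, and only some of them start in a given cell cycle. The short DNA strands made just after initiation carry an RNA primer, which protects them from lambda exonuclease, so sequencing the strands that survive this digestion marks the places where replication began. RepID, also known as PHIP or DCAF14, is a chromatin-associated WD40-repeat protein that binds some origins and not others. An origin without RepID nearby is therefore a natural comparison for those that it binds.

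The study sequenced nascent strands from 2 kinds of HCT116 cells, a human colorectal carcinoma line: WT cells, and cells in which CRISPR-Cas9 had disrupted the RepID gene and which had been selected with puromycin as stable clones. Genomic DNA of HCT116 cells served as the control for calling regions in both. RepID binding came from ChIP-Seq with an antibody against FLAG in U2OS cells, an osteosarcoma line that carried FLAG-tagged RepID, so that binding and initiation were read in different cell lines. There was 1 library per condition, without replicates, so no test between WT and KO cells was possible and all values below describe these libraries. The deposited KO list held 159667 regions. A figure legend of the paper counts fewer KO peaks, which it describes as colocalizing with initiation events in WT cells. The lists give regions with a score and no read totals. The depth of each library is therefore unknown, and a region missing from a list may have been below detection. Percentages carry exact binomial (Clopper-Pearson) 95% confidence intervals and medians carry order-statistic 95% intervals. Both cover counting error only. They treat every region as a separate observation, although origins next to each other tended to be alike. Both kinds of interval are therefore too narrow and understate the error.

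The steps of the choice removed most WT origins. A score of 295 stood at percentile 74.8 of the autosomal WT scores, and 19519 origins reached it, of which 18086 were narrower than 20 kb. Of the 18086, 6417 had a RepID-bound region within 2 kb and are called strong RepID-near origins. A further 2550 had one at a gap of over 2 kb and at most 10 kb, and 344 had none within 300 kb. The kept origins made up 43.7% of the strong RepID-free origins (95% interval 42.6 to 44.7%). By the same measure of cover, 46.3% of all autosomal WT origins and 30.6% of the strong RepID-near origins (1961 of 6417) were kept. The choice used this contrast, and the 3 shares are given as background only. The RepID-free share depended on the limit of cover. It was 73.3% when 1 bp of overlap counted as kept and 20.9% at 80% cover. Among the strong RepID-free origins that were not kept, 2602 were partly covered by KO regions and 2340 met no KO region at all.

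Values on either side of each threshold were close to each other. The origins just inside the score threshold had a score of 295, such as chr1:2073201-2076800 and chr1:15117601-15123000, and those just outside it had 294, such as chr1:112598601-112604200. The widest members, chr5:134649001-134668800 and chr19:48630401-48650200, both spanned 19800 bp, and the next origins that met every other condition, chr1:143405401-143425400 and chr1:201283601-201303600, spanned 20000 bp. The gap to RepID was 10019 bp at chr17:55751201-55756200 and 10022 bp at chr3:196742001-196745400, against 9998 bp at chr6:37645201-37653800 and 9995 bp at chr1:203407201-203414200, which were left out. At the far limit, chr1:7145601-7151400 was included at 299015 bp and chr1:37193601-37198600 was left out at 300083 bp. KO regions covered exactly 50% of chr1:6098201-6112200, which was included, and 49.5% of chr1:44040801-44060600, which was not. The condition that alone left out the most origins was the score, which 20793 origins missed while meeting all the others. The condition on cover alone left out 4942 origins, the smaller gap limit 2978, the larger gap limit 153 and the width limit 125. Positions are counted from 1 on hg19, the genome build named in the submitters' processing notes, and all ends of the nascent-strand regions lie on a grid of 200 bp.

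The kept origins were mostly a few kilobases wide. Their median width was 6400 bp (95% interval 6400 to 6600 bp), the middle 50% spanned 5000 to 8600 bp, and the narrowest was 400 bp. Of the 3833, 2999 (78.2%) were 3 to 10 kb wide, 154 (4.02%) were narrower than 3 kb and 680 (17.7%) were 10 kb or wider. Origins that were not kept had a median of 6600 bp and quartiles at 4600 and 9600 bp, so that their widths were spread farther in both directions, with 5.95% under 3 kb and 23% at 10 kb or more. Kept RepID-near origins had a median of 6200 bp. In total the 3833 origins spanned 27.7 Mb, of which KO regions covered 21.2 Mb (76.6%).

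**Figure D1:**
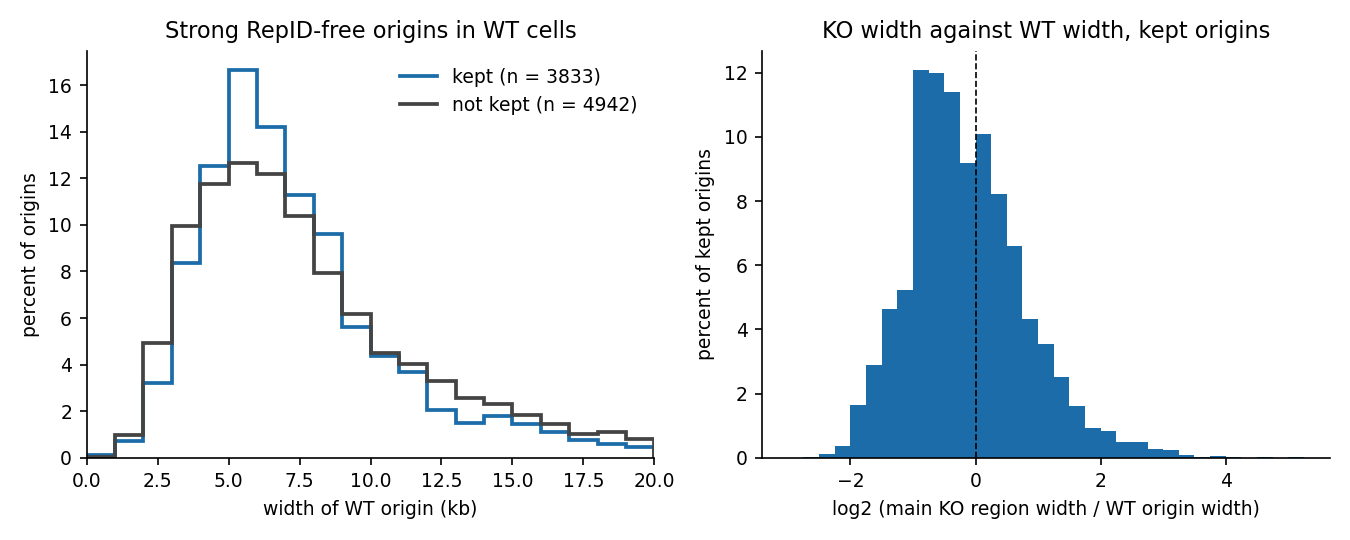
Left, widths of strong RepID-free origins in WT cells in steps of 1 kb, as a percent of the kept origins (blue, n = 3833) and of those not kept (dark grey, n = 4942); kept origins are the more concentrated between 5 and 9 kb. Right, log2 ratio of the width of the KO region with the longest overlap to the width of the WT origin, as a percent of the kept origins; the dashed line marks equal widths, and 59.6% of the kept origins lie to its left.

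The WT scores of the kept origins lay toward the lower end of the strong range. The median score was 496 (95% interval 484 to 507), with quartiles at 371 and 767, against a median of 599 for origins that were not kept and 673 for kept RepID-near origins. A WT score in the top 10% of the autosomal list was held by 865 kept origins (22.6%) and by 35.4% of those not kept. The highest-scoring member, chr8:142552401-142564600, had a WT score of 7904 and a width of 12200 bp, and 2 KO regions covered 85.2% of it. Next came chr17:36332401-36350400 with a score of 7181, all of which lay in 1 KO region of 30800 bp. The others of the 5 highest were chr8:86735201-86750400 (score 5728), chr5:836601-855600 (score 5181) and chr8:86781801-86795600 (score 5125). KO cover was 51.6% at the one on chromosome 5, close to the limit of the choice, and complete at both on chromosome 8.

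The gap to the nearest RepID-bound region had a median of 40603 bp in kept origins and 34473 bp in those not kept. No RepID-bound region lay within 100 kb of 699 kept origins (18.2%, 95% interval 17 to 19.5%), and the same was true of 14.1% of those not kept. The median number of RepID-bound regions within 100 kb was 2 for kept and 3 for not kept origins. The nearest RepID-bound region had similar scores in both sets, with medians of 188 and 178. Another WT origin lay within 2 kb of 60.2% of the kept origins and 61.7% of the others, so the immediate neighbourhood in WT cells was about equally crowded.

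In KO cells the kept origins were not copied edge for edge. KO regions covered a median of 78.4% of their length, and 779 origins (20.3%, 95% interval 19.1 to 21.6%) were covered over their whole length. This last share depended on the limits. It was 35.2% with the score minimum at the WT median and 10.3% with it at the 90th percentile. With 1 bp of overlap counted as kept it was 12.1%, and at 80% cover it was 42.6%. The cover was highest in the middle, a shape that the choice itself produces, since a single KO region that covers 50% or more of an origin has to reach its centre. When each origin was cut into 10 parts of equal length, KO regions covered 68.1% of the first and of the last part and 86.2% of the fifth. The centre was covered in 3333 origins (87.0%). Both ends were covered in 1526 (39.8%), and neither end was covered in 527 (13.8%), where KO initiation lay wholly inside the WT origin. In kept RepID-near origins, the fifth part was covered to 79.8% and the first to 67.4%. Partly covered RepID-free origins, which were set apart by their cover of under 50%, had the opposite order, with 33.8% in the first part and 23.4% in the fifth, and nothing is read from this contrast.

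Most kept origins corresponded to 1 KO region. A single KO region overlapped 2394 of them (62.5%), 2 overlapped 1178 (30.7%), 3 overlapped 234 (6.11%), and 4 or more overlapped 27 (0.704%). Taking for each origin the KO region with the longest overlap, called its main KO region, 763 origins (19.9%) lay entirely in a larger region and 16 shared both ends with it. In 1289 origins (33.6%) the main KO region lay inside the origin. It crossed only the lower end in 926 and only the upper end in 839. The main KO region was narrower than the origin in 59.6% and wider in 38.0%, and the median ratio of KO to WT width was 0.837. Centres of origin and main KO region were a median of 1400 bp apart, and in 38.3% of the kept origins they were within 1 kb of each other. The shift had no preferred side, with the KO centre at the lower coordinate in 1909 origins and at the higher coordinate in 1845.

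The strength of the KO signal was read from scores, which were compared only within a list because what the nascent-strand score means is not stated. The highest-scoring KO region over each kept origin stood at a median percentile of 88.3 of the autosomal KO list (95% interval 87.6 to 89.0). Of the kept origins, 3549 (92.6%) had a KO score above the median of that list, 1770 (46.2%) were in its top 10%, and 35 (0.913%) were in its lowest 25%. For kept RepID-near origins the median percentile was 86.2. For partly covered RepID-free origins it was 51.4, near the middle of the list. In the KO list, width and score went together, with a Spearman rho of 0.953 over the main KO regions of the 3833 origins, and the choice of the origins used KO cover, so this percentile is not independent of it.

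In all, 5378 KO regions lay over kept origins, out of 159441 on the autosomes. Their median width was 4600 bp against 3000 bp for the autosomal KO list, and their median score was 202.5 against 130. KO regions over kept RepID-near origins were similar, with medians of 4200 bp and 192. The choice asked for KO cover, so the widths and scores of the KO regions over kept origins are not independent of it. The 5378 regions spanned 31.2 Mb, of which 67.9% fell inside the kept origins. Of the 5378, 1070 (19.9%) also reached another WT origin, and 167 overlapped 2 or more kept origins. KO regions of 20 kb or wider numbered 109 and lay over 172 kept origins.

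WT and KO scores were compared across the kept origins, which the choice limits in WT score and in KO cover. Over the 3833 kept origins, WT score and KO score percentile had a Spearman rho of 0.141, against 0.267 in the 1961 kept RepID-near origins, and WT and KO width one of 0.299, which was 0.465 in the 2394 origins with a single KO region. These describe regions that share libraries and neighbourhoods. Split into 4 groups of nearly equal size by WT score, the origins widened from a median of 5000 bp in the lowest group (scores 295 to 371) to 10400 bp in the highest (767 to 7904). The main KO regions widened much less, from 5000 to 6200 bp. The ratio of KO to WT width therefore fell from 1.07 through 0.949 and 0.782 to 0.605, and the median KO cover fell from 82.8 to 72.7%. The KO score percentile moved the other way, from 84.9 to 91.8. This percentile was that of the highest-scoring KO region over each origin, and a wider origin can meet more KO regions. In the 2394 origins with a single KO region, WT score and this percentile had a Spearman rho of 0.187.

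The share of strong RepID-free origins that was kept fell with the WT score. In 5 groups of nearly equal size by WT score it was 50.3%, 50.7%, 45.6%, 41.9% and 30%, with scores of 1057 or more in the last. In strong RepID-near origins with the same score limits, it was 30.3%, 31.9%, 30.3%, 31.6% and 29.4%. These shares rest on the cover that chose the origins and are given as a description. The shares were also read within groups of similar width. Among origins 5 to 10 kb wide, the RepID-free share fell from 58.1% in the lowest score group to 28.8% in the highest, and among those 10 to 20 kb wide it was 64.7% in the middle group and 30.1% in the highest. Among origins narrower than 5 kb it was 43.8%, 42%, 36.6% and 35.1% in the first 4 score groups and 43.9% (95% interval 28.5 to 60.3%) in the highest, which held only 41 origins. In RepID-near origins the shares of the lowest and highest score groups were 43.2% and 29.5% at 5 to 10 kb. Under 5 kb they were 26.8% and 37.8% (95% interval 27.3 to 49.2%), the latter from 82 origins. At 10 to 20 kb the RepID-near share was 43.3% in the middle group, with 30 origins, then 36.9%, and 28.8% in the highest. The share with an overlap of any length did not fall in this way. It was 69.8% in the lowest and 76.8% in the highest score group of RepID-free origins.

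Kept shares were highest at intermediate widths. They were 34.4% in RepID-free origins narrower than 3 kb, 42.7% at 3 to 5 kb, 49.1% at 5 to 7 kb, 45.6% at 7 to 10 kb and 37.5% at 10 to 20 kb. RepID-near origins had lower values in each width group, from 20.7% under 3 kb to 37.0% at 5 to 7 kb. Both the gap to RepID and the KO cover were used in the choice. The shares by width, their contrast with RepID-near origins and the values by gap that follow are a description. Nothing is read from them. By gap to RepID the kept share was 38.2% (95% interval 36.1 to 40.2%) at a gap of over 10 to 20 kb, then 43.0%, 46.4% and 49.5%, and 52.3% (46.5 to 58.0%) at over 200 kb.

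The surroundings of the kept origins were also rich in KO regions. At the centres of kept origins KO cover was 87.0%, and it averaged 37.0% at 20 to 50 kb on either side. The flanks from 10 to 50 kb were covered by KO regions to a median of 34.8% at kept origins and 21.8% at those not kept, whereas WT regions covered 39.8% and 44.8% of the same flanks. Kept RepID-near origins were similar to the kept RepID-free ones. Their flanks had a median KO cover of 32.4%, and KO cover was 81.3% at their centres and 34.7% at 20 to 50 kb. The kept share rose steeply with the KO cover of the flanks. It was 10.8% (95% interval 7.64 to 14.7%) where KO regions covered less than 5% of the flanks, then 20%, 29.1%, 36.9% and 49.3%, and it reached 71.6% (69.6 to 73.5%) where they covered 40% or more. At the same flank cover, RepID-near origins had shares of 12.3%, 14.3%, 20.2%, 27.1%, 34.9% and 60.8%. The contrast between these sets rests on the gap and cover used in the choice, and nothing is read from it. Over all 8775 strong RepID-free origins, kept or not, KO cover was 44.4% at the centre and 29.5% at 20 to 50 kb, a ratio of 1.51. For the 6417 strong RepID-near origins these values were 31.9% and 26.1%, a ratio of 1.22. This contrast also rests on the gap and the KO cover that the choice used, and nothing is read from it. Kept status and flank cover were read from the same KO list. A KO region that reached from an origin into its flanks counted for both. The rise of the kept share with flank cover is therefore given as a description. The part of the surrounding KO cover in the kept share was not tested.

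**Figure D2:**
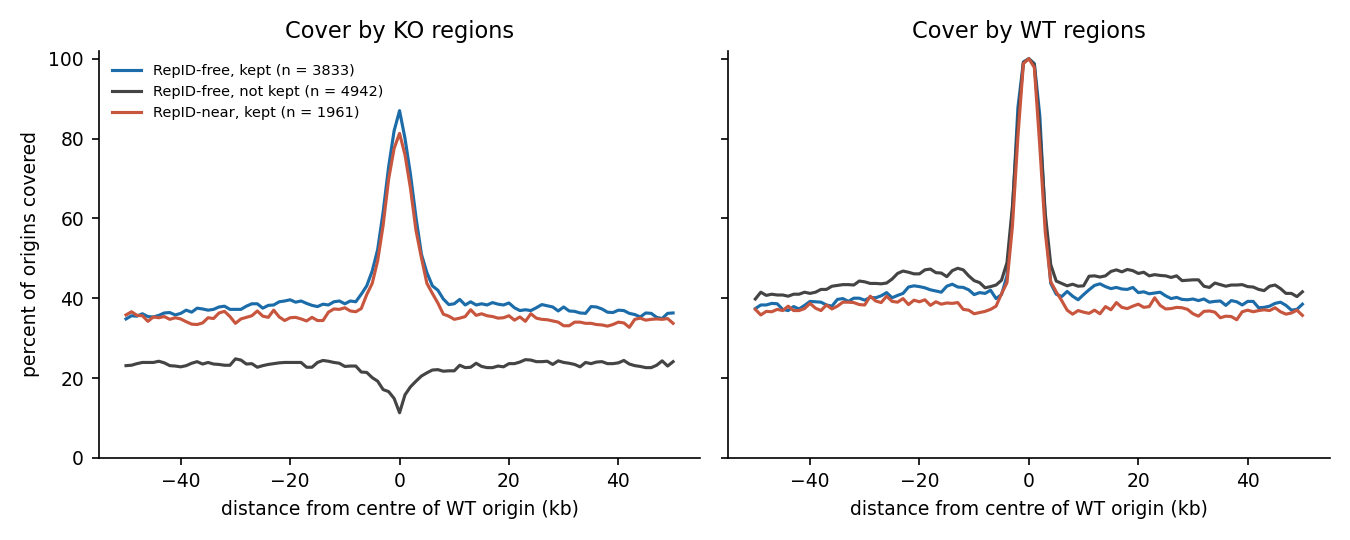
Percent of origins covered by KO regions (left) and by WT regions (right) at distances up to 50 kb from the centre of the WT origin, for kept strong RepID-free origins (blue, n = 3833), strong RepID-free origins not kept (dark grey, n = 4942) and kept strong RepID-near origins (red, n = 1961). KO cover of kept RepID-free origins peaks at 87.0% and stays between 34.8 and 39.6% from 20 to 50 kb, while that of the origins not kept dips to 11.3% at the centre, as the choice by cover demands.

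**Figure D3:**
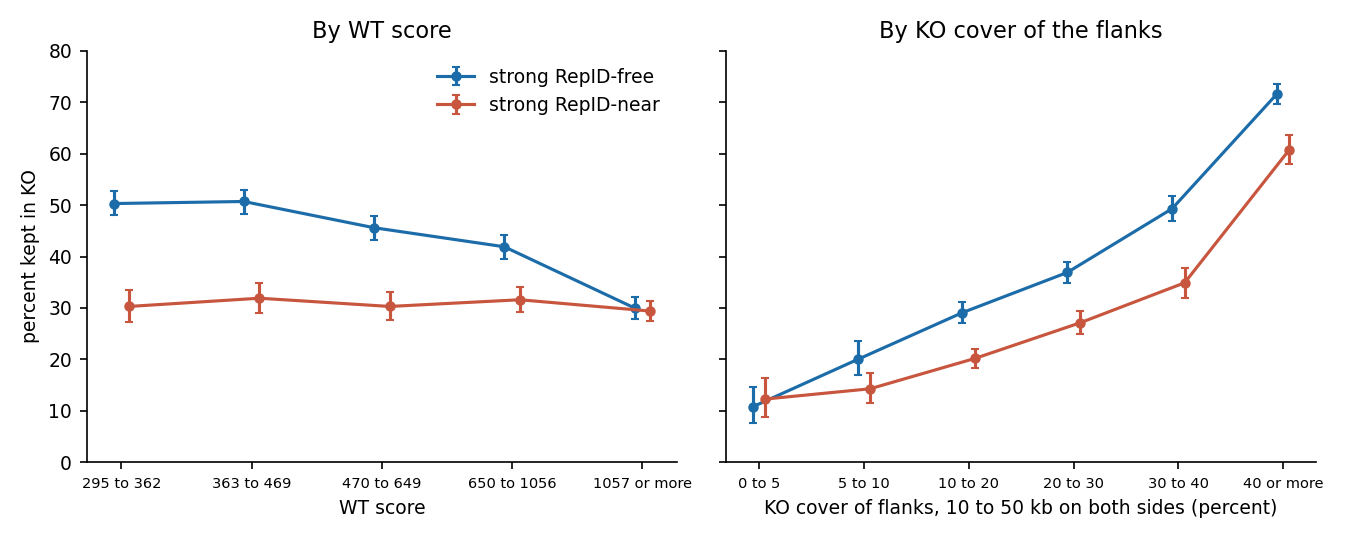
Percent of origins kept in KO cells against WT score (left) and against KO cover of the flanks from 10 to 50 kb on both sides (right), for strong RepID-free (blue) and strong RepID-near origins (red); bars are exact binomial 95% intervals. The blue points fall from 50.3 to 30% with the WT score and meet the red ones in the highest score group, and both series rise with flank cover, to 71.6 and 60.8%. Kept status and flank cover come from the same KO list.

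Kept origins were found on every autosome, from 45 on chromosome 21 to 450 on chromosome 1. Per megabase between the first and last WT origin, their density ranged from 0.335 on chromosome 4 to 4.04 on chromosome 17, followed by 2.84 on chromosome 22, 2.58 on chromosome 10 and 2.38 on chromosome 16. Chromosomes 1, 10 and 17 together held 1128 kept origins (29.4%), against 23.5% of all strong RepID-free origins.

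The share of strong RepID-free origins that was kept differed between autosomes by more than the counting intervals. It was 62.1% on chromosome 10 (95% interval 57.9 to 66.1%), 60.8% on chromosome 8 (55.6 to 65.8%) and 56.8% on chromosome 17 (52.7 to 60.9%). The lowest shares were 19.8% on chromosome 19 (16.7 to 23.2%), 26.6% on chromosome 21 (20.1 to 34.0%) and 28.6% on chromosome 22 (23.9 to 33.6%). Chromosomes 19 and 22 had the most strong RepID-free origins per megabase, 10.0 and 9.95, and chromosome 17, with 7.11 and a share of 56.8%, came next, so that density and kept share had no common order (Spearman rho -0.061, n = 22). Autosomes with more of their span covered by KO regions kept more (Spearman rho 0.693, n = 22), and those that kept more RepID-free origins also kept more RepID-near ones (rho 0.734, n = 22), all read from the same KO library. In the same KO library, and by the cover that chose the origins, the RepID-free share was above the RepID-near share on 21 of 22 autosomes, which is given as a description. The exception was chromosome 21, with 26.6% against 28.9% of only 38 RepID-near origins.

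**Figure D4:**
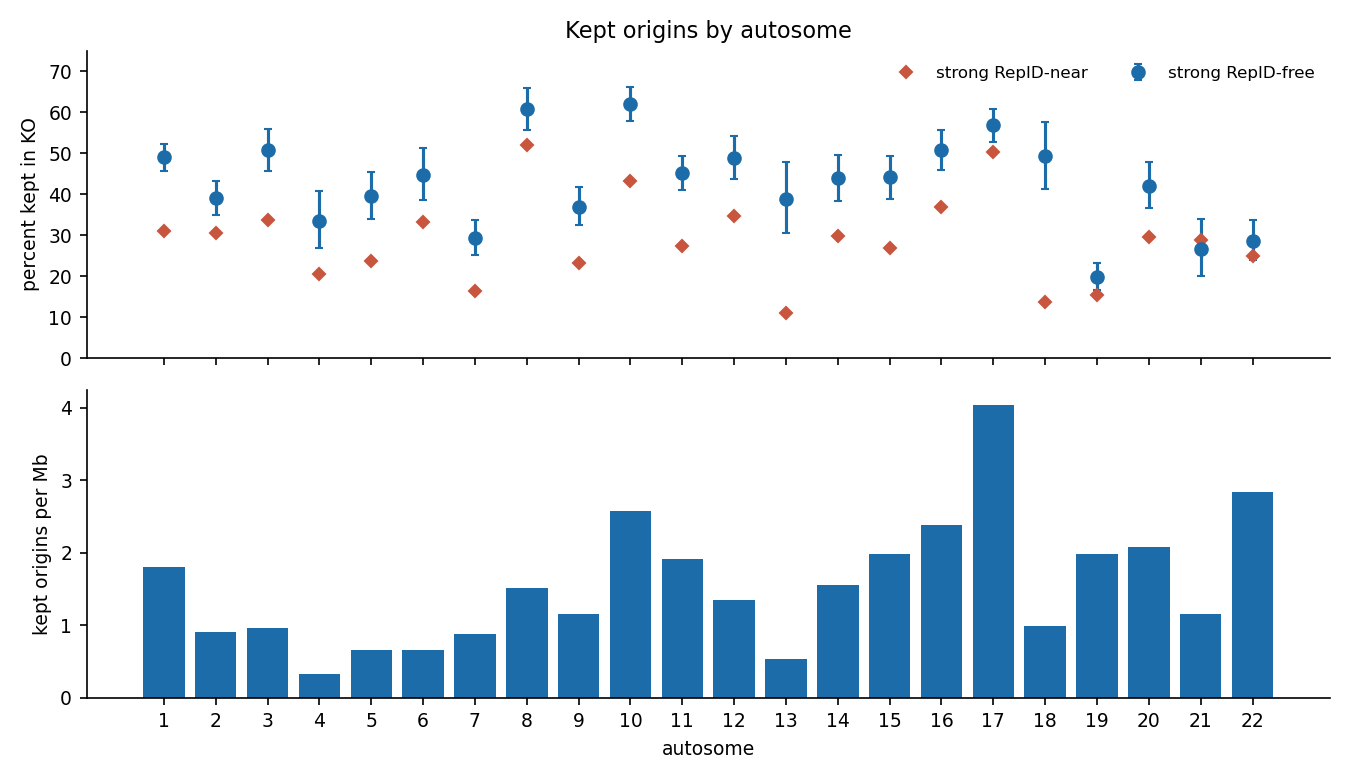
Top, percent of strong RepID-free origins kept in KO cells on each autosome (blue, with exact binomial 95% intervals) and percent of strong RepID-near origins kept (red, no interval drawn). Bottom, kept strong RepID-free origins per Mb of the span between the first and last WT origin; chromosome 17 has the highest density, 4.04 per Mb, and chromosome 4 the lowest, 0.335.

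Chromosomes 8, 10, 16 and 17 stood apart in the KO signal over their kept origins. The median KO score percentile was 96.7, 97.0, 95 and 95.2 on these in that order, and its highest value on the other 18 was 89.0, on chromosome 12. Their main KO regions were wider as well, with medians of 7600, 7800, 6800 and 7000 bp against 4200 to 5800 bp on the other 18. These 4 autosomes held 1116 kept origins (29.1%). On them 57.8% of the strong RepID-free and 45.7% of the strong RepID-near origins were kept, and on the other 18 these shares were 39.7% and 26.3%. Much of this lay in the 9 windows of 10 Mb described next, and outside them the RepID-free share on these 4 autosomes was 46.3%, with a median KO score percentile of 91.3 and main KO regions of 6000 bp. Chromosomes 1, 3, 12 and 18 had higher shares than that, 49.0%, 50.8%, 48.9% and 49.4%. WT scores of kept origins differed less, with medians of 521.5 and 486. With 1 KO library, a difference of the KO cells or of that library over these chromosomes and a difference of the origins themselves cannot be told apart, which holds for the stretches described next as well. Copy number and differences between clones of the KO cells bear on what these kept shares mean, and they were not tested.

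Within chromosomes the kept share varied from stretch to stretch. Of 268 windows of 10 Mb with a strong RepID-free origin, 241 had a kept one, and 134 had 20 or more strong RepID-free origins. In these 134 the kept share ranged from 10.3 to 96.4%, with a median of 46.1%. It was 80% or more in 9 windows, all on chromosomes 8, 10, 16 and 17. The highest were chr8:130000001-140000000 with 27 of 28 kept, chr10:110000001-120000000 with 50 of 52, and chr17:60000001-70000000 with 42 of 44. On chromosome 10 the neighbouring windows from 100000001 and from 120000001 kept 47 of 55 and 114 of 124, and chr16:80000001-90000000 kept 110 of 123. KO regions covered 40.4 to 62.6% of these 9 windows. At the other extreme, chr15:30000001-40000000 kept 3 of 29 and chr19:10000001-20000000 kept 20 of 155, with 18.6 and 12.6% of the window covered by KO regions.

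The windows were picked for their kept RepID-free origins, and other classes of origin in them were high as well. Of 292 strong RepID-near origins in the 9 windows, 219 (75%, 95% interval 69.6 to 79.9%) were kept, against 28.4% outside them. Among RepID-free origins with scores under 295 in the same limits of width and gap, 88.0% of 2254 were kept there and 50.7% of 37065 elsewhere. The 451 kept origins in these windows (11.8%) had a median KO score percentile of 98.8, KO cover of 94.0% and main KO regions of 10200 bp, against 85.9, 76.0% and 5200 bp for the other 3382. Their WT scores were near those of the others, with medians of 514 and 494. Outside the 9 windows, 40.8% of the strong RepID-free origins were kept, against 28.4% of the strong RepID-near ones. Both shares rest on the gap and the cover used in the choice and are given as background only.

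The spacing of kept origins depended on the limits of the choice. The median gap between neighbouring kept origins on an autosome was 98200 bp (95% interval 91200 to 106600 bp), with quartiles at 20400 and 372300 bp over 3811 gaps. It was 42200 bp with the score minimum at the WT median, 447800 bp with it at the 90th percentile, 53600 bp when 1 bp of overlap counted as kept and 209300 bp at 80% cover. With the limits as given, it was 63100 bp between neighbouring origins that were not kept, of which there were more, and 35000 bp over all strong RepID-free origins. Gaps under 10 kb made up 17% of the gaps between kept origins and 24.9% between those not kept. Gaps over 1 Mb made up 11.1% and 8.88%. The smallest gap was 800 bp. The first pairs at this distance, in order of position, were chr1:7109201-7119600 with chr1:7120401-7133800, chr1:23170601-23190000 with chr1:23190801-23197400, and chr1:44701001-44711000 with chr1:44711801-44720000.

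**Figure D5:**
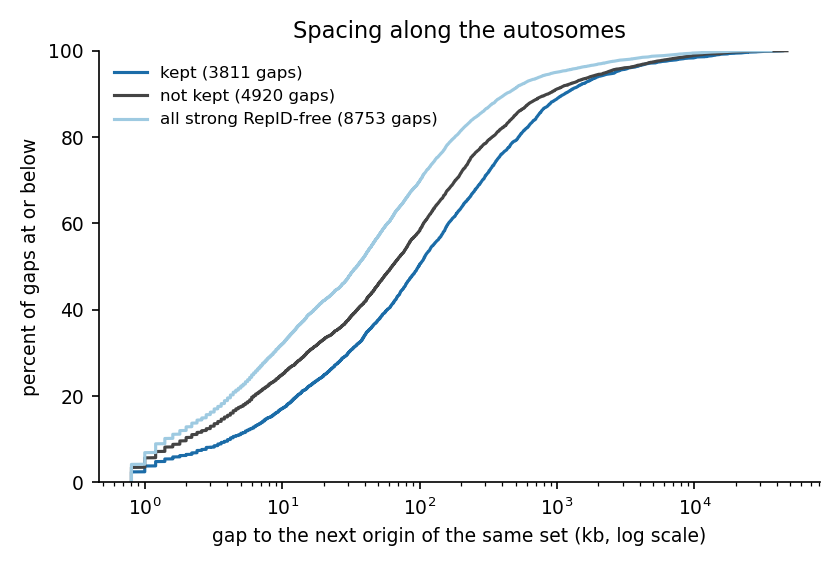
Cumulative percent of gaps to the next origin of the same set along each autosome, against the gap in kb on a log scale, for kept strong RepID-free origins (blue, 3811 gaps), those not kept (dark grey, 4920 gaps) and all strong RepID-free origins (light blue, 8753 gaps). The median gaps are 98200, 63100 and 35000 bp.

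Kept origins followed each other more often than they followed origins that were not kept. Along the strong RepID-free origins, the next one was kept in 55.4% of cases after a kept origin (95% interval 53.8 to 57.0%) and in 34.5% after one not kept (33.2 to 35.9%), and the order was the same on 22 of 22 autosomes. For gaps under 10 kb these shares were 57.3 and 28.3%, and they drew together with distance, to 50.9 and 43.4% at 200 kb or more. An origin whose neighbours on both sides were kept was itself kept in 64.5% of 2061 cases. With 1 kept neighbour the share was 44.8%, and with none it was 28.8%. These neighbour shares rest on the KO cover that chose the origins and are given as a description. Differences in kept share between chromosomes and windows were not removed from them. The 167 KO regions that lay over 2 or more kept origins counted for such neighbours together. The part of these differences and of these regions in the pattern was not tested.

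When kept origins less than 50 kb apart were joined, they formed 2401 runs. Of these, 1636 held a single origin (42.7% of the kept origins), 765 held 2 or more, and 85 held 5 or more, with 553 origins (14.4%). The longest run was chr12:2481601-2754000, which spans 272.4 kb and held 13 kept origins among 14 strong RepID-free and 38 WT origins in all. These 13 were 3600 to 11600 bp wide, had WT scores of 295 to 906 and lay 14617 to 160617 bp from RepID. The first, chr12:2481601-2487200 (score 408), was covered to 78.6% by a KO region of 11600 bp. In the middle of the run, chr12:2627601-2635800 (score 717) and chr12:2637401-2644600 (score 407) shared 1 KO region of 24200 bp with a score of 1268. The origin with the highest WT score of the run, chr12:2717601-2729200 (score 906), was split over 3 KO regions that together covered 79.3%, and the last, chr12:2746001-2754000 (score 547), was covered to 65.0%. A pair of runs of 12 kept origins lay on chromosome 16, at chr16:81546601-81737600 and chr16:86356201-86507200, and every strong RepID-free origin within them was kept. Runs of 11 and 10 lay on chromosome 10, and one of 10 on chromosome 8.

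The run on chromosome 8, chr8:86726401-86841200, differed from the others, since all 10 of its origins lay under 1 KO region. This region, chr8:86726401-86843600, was 117200 bp wide, the widest of the autosomal KO list, and had a score of 36746, the highest over any kept origin. It supplied the members with the highest KO score and the widest KO region, among them chr8:86726401-86730000 (WT score 2770), chr8:86751201-86762000 (4377), chr8:86762801-86769200 (934) and chr8:86770201-86780600 (3119). The first of these had the largest ratio of KO to WT width, 32.6. In WT cells the same stretch was divided into 10 origins of 3600 to 15200 bp with scores of 934 to 5728, all 150011 bp or more from RepID. At the opposite end, chr1:19130801-19148400 had the smallest ratio, 0.170, with 17600 bp in WT cells and a main KO region of 3000 bp.

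The widest kept origins were met by several KO regions each. After the 2 of 19800 bp, which had 3 KO regions each, came chr10:121164601-121184200 (19600 bp, WT score 1591), where 4 KO regions covered 82.7%, and chr22:37148601-37168200 (19600 bp, score 1125), where 4 covered 75.5%. The fifth, chr1:23170601-23190000 (19400 bp, score 1444), was covered to 58.8% by 3. None of their main KO regions was wider than 12400 bp.

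Some kept origins stood far from any other. The most isolated was chr4:111557601-111559200, with 33.9 Mb to the nearest other kept origin. It was 1600 bp wide with a WT score of 420, lay 14105 bp from RepID, and was covered completely by a KO region of 3400 bp. Its KO score stood at percentile 49.5. Next were chr5:40679001-40683000, 23.1 Mb from another, with a KO score at percentile 92.3, and chr2:159584801-159589000, 15.3 Mb from another. The one on chromosome 2 was covered to 61.9% by 2 KO regions, with a KO score at percentile 57.8.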

How the data were processed

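Nascent strands were measured in WT and KO HCT116 cells and RepID binding in U2OS cells, with 1 library each. The authors deposited 1 list of enriched regions per library, each region with a score: for RepID, called with MACS against genomic input, and for nascent strands, called against HCT116 genomic DNA, with the programme for HCT116 not given in the sources used here (the submitters' processing notes name MACS, SICER and hg19). The deposited score of the nascent-strand lists is a whole number of unstated meaning and served to choose and rank origins inside 1 list. No per-sample column was left unused (0).

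Overlaps, gaps and covered lengths were computed with pandas 2.3.3, SciPy 1.17.1 and numpy 2.4.6 in Python 3.11.15, drawn with matplotlib 3.10.9, and tested on simulated data and against bedtools 2.31.1. The origins, thresholds and groupings were chosen with earlier results of these data known. Regions named are the 5 kept origins highest in WT score, in KO score and in width, the 3 with the widest KO region, the 3 closest pairs, the 3 most isolated, the longest run, the extremes of width ratio and 2 on each side of every threshold. Other windows, runs and origins were named after their values were seen. Alternatives varied the thresholds of score, width, gap and cover, the RepID and KO lists and the merging of regions. No genome of the build of the lists was used, so sequence and gene context were not analysed here.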

Additional observations from a re-analysis of the deposited data

How the results depend on the processing

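With 1 library per condition, the values below show how far each description moves with the choice of regions, and none could be set against replicates; depth is unknown and limits what a missing KO region means. No paired analysis was possible because each condition has 1 library and no test was made. Of 96 alternative values over 12 settings, 34 stayed within the counting interval of the value in the report (or, for the number of origins, within 1.5 times) and 62 moved. The cause was not tested beyond what each setting does by construction. The values in the report are 3833 kept origins, a kept share of 43.7%, 20.3% fully covered, widths of 6400 bp (WT) and 4600 bp (KO), a KO score percentile of 88.3, centres 1400 bp apart and gaps of 98200 bp, and the moved values are given in that order. With the score minimum at the WT median of 123, they were 10061 origins, 48.2%, 35.2%, 4200 bp (WT), percentile 84.7, 1100 bp and 42200 bp. At the 90th percentile of 809 they were 865, 33.1%, 10.3%, 10600 bp (WT), 92.0, 1900 bp and 447800 bp. With 1 bp of overlap counted as kept they were 6435, 73.3%, 12.1%, 7000 bp (WT), 3800 bp (KO), 76.4, 1800 bp and 53600 bp. With 80% cover they were 1830, 20.9%, 42.6%, 6200 bp (WT), 6400 bp (KO), 94.9, 1300 bp and 209300 bp. A RepID gap over 2 kb gave gaps of 74500 bp, and one over 20 kb gave a share of 45.5% and gaps of 118200 bp. Widths under 10 kb gave 45.3%, 22.6%, 5800 bp (WT), 86.2, 1300 bp and 138400 bp. With only RepID regions at or above their median score, the share was 41.8% and gaps were 72600 bp. With the KO list limited to its 78859 highest-scoring regions, they were 36.3%, 24.2%, 5600 bp (KO), 91.0 and 115500 bp. Merging regions less than 1 kb apart gave 24.9%, 7000 bp (WT), 5600 bp (KO), 1600 bp and 111800 bp. A pair of settings was chosen after seeing the data. Without chromosomes 8, 10, 16 and 17 the values were 39.7%, 15.4%, 4200 bp (KO), 84.6, 1300 bp and 120800 bp. Without KO regions of 20 kb or wider they were 41.8%, 17.8%, 87.2, 1300 bp and 107100 bp. The alternative planned for sequence and gene context was not run, as no genome of the build of the lists was used.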

Other observations

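The X chromosome was left out of the choice of origins, and its values differ from those of the autosomes. By the same limits of score, width and gap it held 78 strong RepID-free origins, of which KO regions covered 50% or more in 3 (3.85%, exact binomial 95% interval 0.80 to 10.8%) and touched 7. The KO list had 190 regions on this chromosome and the WT list 1304, whereas over the autosomes the KO list was the longer, with 159441 against 77492. The lowest kept share of any autosome was 19.8%, on chromosome 19. With 1 library of each kind, a difference of the KO cells or of their library over the whole chromosome cannot be told apart from a difference of its origins, and these values describe the lists as deposited. The copy number of this chromosome in the KO cells, and differences between their clones, were not tested.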
